A study of Mus musculus with 28 samples.

Results

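Transcripts of the MHC class II presentation pathway were followed through mouse plasma cell tumors and normal B cells. The 10 genes were listed by their role in the pathway: the class II chain genes H2-Aa, H2-Ab1 and H2-Eb1, the peptide loading genes H2-DMa, H2-DMb1 and H2-DMb2, their inhibitors H2-Oa and H2-Ob, the invariant chain gene Cd74 and the regulator Ciita. They are 10 of 19057 genes with a probe of a single symbol on the arrays, and they have 18 probes. All 18 were detected on at least 3 arrays and were tested, and every one is reported here.

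RNA was hybridised to Illumina arrays, a probe intensity being the readout. The 14 adoptive-transfer tumors were whole plasma cell tumors from oil granulomas, collected at 105 to 158 days of age after transfer of premalignant B cells. The 11 spontaneous tumors were whole plasma cell tumors from lymph nodes, collected at 40 to 162 days. The strain of both kinds is C.iMyc/IL-6, which combines an inserted Myc gene with an IL-6 transgene. The 3 normal samples were splenic B cells of BALB/c at 90 days of age, with neither allele named, and all groups share the BALB/c background. The promoter of the transgene, any pooling of animals and the purity of the normal B cells are not given in the sources used here. Tumor kind and tissue coincide and cannot be told apart. Nothing in the labels says that the samples are separate animals, so p-values measure the spread between these samples.

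MHC class II molecules carry peptides from endocytosed proteins to the cell surface, where CD4+ T cells read them. An alpha and a beta chain pair in the endoplasmic reticulum with the invariant chain, the product of Cd74, which blocks the peptide groove and guides the complex to endosomes. There H2-DM exchanges the remnant of the invariant chain for antigenic peptide, and H2-O restrains H2-DM in B cells. Mature B cells, dendritic cells and macrophages carry class II, and plasma cells lose it as they differentiate. CIITA, the protein of Ciita, does not bind DNA itself: it is recruited by the RFX, CREB and NF-Y factors, which sit on the X and Y boxes that class II promoters have in common.

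The start regions of the genes were searched for letters of these boxes. RefSeq windows of build GRCm38.p6, from 250 bases before to 50 after the gene start, were at hand for 7 of the 10 genes, 8 windows in all. The Y box core ATTGG, searched on both strands, was in 7 of the 8 windows and in all 7 genes, against 37.4% of 32851 mouse windows. The longer CTGATTGG, which contains ATTGG, was found for 3 genes (H2-Aa, H2-Eb1 and H2-Oa), against 4.1% of windows. An X box pattern, searched by its fixed letters on both strands, was found for 3 genes, as AGCAACTGATG in H2-Eb1, AGTAACTGATG in H2-DMb1 and AGTGACAGATG in H2-Oa, against 0.968% of windows. Matches are descriptions of letters, and a window without one says nothing about the factors. The 150 bases before the start are printed for the 4 genes with the longer Y box or the X pattern, 5′ to 3′ on the gene's strand, with capitals for ATTGG on either strand and for the X pattern.
H2-Aa: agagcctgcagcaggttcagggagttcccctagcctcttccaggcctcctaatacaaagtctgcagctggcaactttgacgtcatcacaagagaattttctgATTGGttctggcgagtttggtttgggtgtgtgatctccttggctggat
H2-Eb1: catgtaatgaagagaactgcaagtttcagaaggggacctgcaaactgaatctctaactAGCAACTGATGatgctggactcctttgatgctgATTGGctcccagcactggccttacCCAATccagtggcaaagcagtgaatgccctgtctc
H2-DMb1: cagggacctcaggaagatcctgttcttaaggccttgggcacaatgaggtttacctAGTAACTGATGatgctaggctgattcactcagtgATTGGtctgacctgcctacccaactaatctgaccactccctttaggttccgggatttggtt
H2-Oa: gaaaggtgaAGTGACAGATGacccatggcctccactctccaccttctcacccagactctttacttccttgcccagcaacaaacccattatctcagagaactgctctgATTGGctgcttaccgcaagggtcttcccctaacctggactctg
These lie at chr17:34287824-34287973 (minus strand), chr17:34305717-34305866, chr17:34153041-34153190 and chr17:34092229-34092378 (plus strand for the last 3). The first base of ATTGG stands 48 bases before the start in H2-Aa, 59 in H2-Eb1, 61 in H2-DMb1 and 43 in H2-Oa. H2-Eb1 also holds the reverse, CCAAT, with its first base 35 before the start. The X pattern begins 92 bases before the start in H2-Eb1, 95 in H2-DMb1 and 141 in H2-Oa. In the other windows ATTGG began 90 bases before the start in H2-DMb2, 57 in H2-Ob and 198 in H2-DMa.

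Between 11544 and 16827 probes were detected (detection p under 0.05) per adoptive-transfer tumor, 14472 to 16756 per spontaneous tumor and 15633 to 16866 per normal sample. The normal samples carried 15 of 15 mature B cell markers, and also 6 of 6 T cell markers, so T cell transcripts were present in them. Of 8 plasma cell markers, 6 were higher and 0 lower in each tumor kind, led by the folding factor Fkbp11 (3.76 ± 0.62 log2 units in adoptive-transfer and 4.28 ± 0.64 in spontaneous tumors, limma, SE) and Derl3 of endoplasmic reticulum degradation (3.26 ± 0.37 and 4.39 ± 0.38). Adoptive-transfer tumor 5 stood apart. Its plasma cell score, the mean log2 value of the markers, was 7.75 (7.75 to 9.97 in its group, 7.48 to 7.63 in normal B cells), its neutrophil score of 11.70 was the highest of the 28 arrays, and its endothelium score of 5.09 was the lowest of the tumors (5.09 to 8.97 in adoptive-transfer and 7.52 to 8.11 in spontaneous tumors, 4.85 to 5.06 in normal B cells). Of 7 fibroblast markers 6 were higher in adoptive-transfer and 4 in spontaneous tumors, of 6 endothelium markers 3 and 5, with 0 lower, and of 4 neutrophil markers 0 were called either way in each kind. The shares of all genes given above apply to these counts too. The plasma cell marker Jchain, the fibroblast markers except Fbln1, and Cdh5, Tek and Emcn of endothelium were detected in no normal sample. They entered the test through the tumors alone, which fixes their direction. Values on which adoptive-transfer tumor 5 weighs are also given without it.

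All 10 class II genes were lower in both tumor kinds than in normal B cells. The median log2 difference was -4.95 in adoptive-transfer and -5.17 in spontaneous tumors, against 0.11 and 0.08 over all 11804 genes tested. In limma, 10 of 10 passed the threshold (Benjamini-Hochberg adjusted p under 0.05 over all genes) in each comparison, where 16.7% of all genes were called lower in adoptive-transfer and 17.9% in spontaneous tumors. No tumor of either kind reached the lowest normal sample for any of the 10, a separation seen in 9.65% and 18.4% of all genes. Both comparisons share the same 3 normal samples. H2-Aa and H2-Ob entered the test through the normal arrays alone, which fixes their direction, while the other 8 were also detected on at least 3 tumors. Without background correction every difference kept its direction and call but was smaller: the folds then ran from 2.17 (H2-Aa) to 59.1 (H2-DMb2) in adoptive-transfer and from 2.19 (H2-Aa) to 60.8 (H2-DMb2) in spontaneous tumors. In bulk RNA, fewer cells of a type and less RNA per cell cannot be told apart. Normalized log2 intensities are given throughout, and they are comparable between samples for a probe, not between probes.

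**Figure D1:**
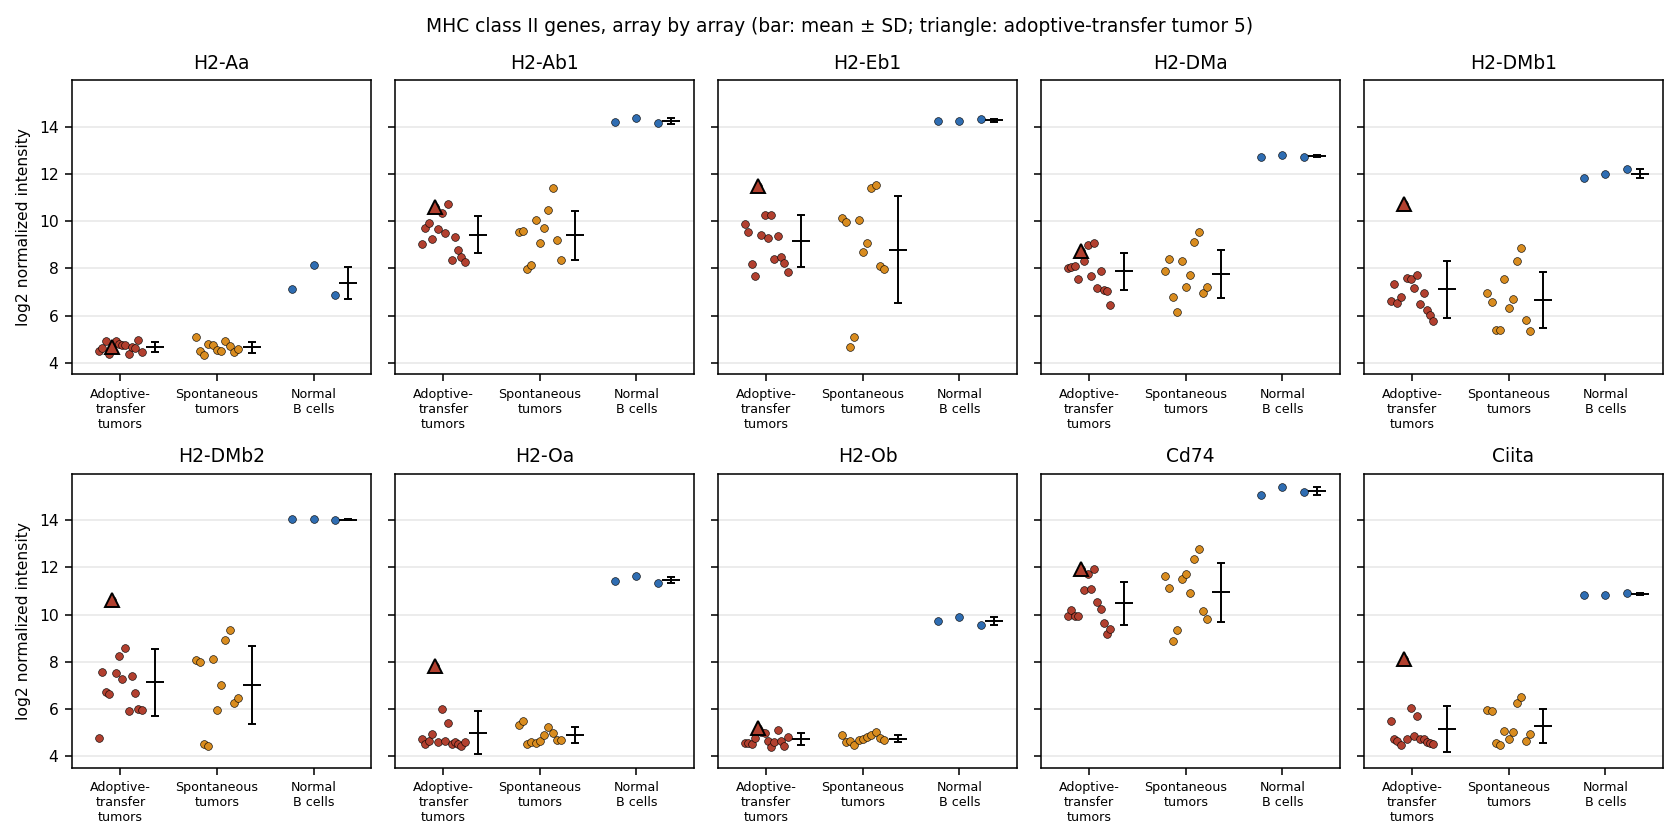
Normalized log2 intensity (vertical axis) of the brightest probe of each class II gene in 14 adoptive-transfer tumors, 11 spontaneous tumors and 3 normal B cell samples; each point is an array, the bar is the mean ± SD, and a triangle marks adoptive-transfer tumor 5. In every panel the normal samples lie above every tumor, and the nearest tumor is adoptive-transfer tumor 5 for H2-DMb1, at 10.73 against 11.84 in the lowest normal sample.

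H2-Ab1 encodes the beta chain of the I-A molecule. Its level ran from 8.28 to 10.71 (median 9.41) in adoptive-transfer tumors and from 7.96 to 11.39 (median 9.53) in spontaneous tumors, against 14.18, 14.37 and 14.17 in normal B cells. Its transcript was detected in every tumor, and every tumor lay at least 2.78 log2 units below the normal samples. The differences were -4.81 ± 0.52 in adoptive-transfer tumors (28.1-fold lower, adjusted p = 2.29e-08) and -4.84 ± 0.53 in spontaneous tumors (28.6-fold lower, adjusted p = 3.12e-08).

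The partner chain of I-A, the alpha chain gene H2-Aa, was detected in 0 of the 25 tumors. Its probe was dim: the intensity before normalization was 105 to 161 in adoptive-transfer tumors, and 114 to 150 across spontaneous tumors, against 356, 423 and 252 in normal B cells. The normalized level was 4.38 to 4.96 (median 4.68) in adoptive-transfer tumors and 4.32 to 5.11 (median 4.61) in spontaneous tumors, against 7.12, 8.14 and 6.89 in normal B cells. As no tumor was above background, the folds are bounds, set by each array's lowest detected signal after background correction: at least 4.52-fold lower in adoptive-transfer (adjusted p = 2.39e-12) and at least 4.63-fold lower in spontaneous tumors (adjusted p = 3.73e-12). The measured folds without background correction were 2.17 and 2.19.

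H2-Eb1, the beta chain of the I-E molecule, varied most among spontaneous tumors. Adoptive-transfer tumors had 7.67 to 11.48 (median 9.32) and spontaneous tumors 4.68 to 11.54 (median 9.06), against 14.25, 14.24 and 14.34 in normal B cells. The SD was 1.08 over adoptive-transfer tumors, 2.26 over spontaneous tumors and 0.06 over normal samples. Spontaneous tumors 3 and 4 held the bottom, at 4.68 and 5.08, and were the tumors in which H2-Eb1 was not detected. They were also the youngest, at 40 and 57 days. The differences were -5.12 ± 0.97 in adoptive-transfer tumors (34.7-fold lower, adjusted p = 0.000111) and -5.49 ± 1.00 in spontaneous tumors (44.8-fold lower, adjusted p = 6.31e-05; 29.4-fold without background correction).

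H2-DMa encodes the alpha chain of the peptide exchange factor H2-DM. It was detected in all 25 tumors, with 6.47 to 9.07 (median 7.94) in adoptive-transfer and 6.17 to 9.55 (median 7.74) in spontaneous tumors, against 12.74, 12.78 and 12.71 in normal B cells. The differences of -4.87 ± 0.51 and -4.98 ± 0.53 are 29.3-fold and 31.6-fold lower levels in the adoptive-transfer and the spontaneous tumors (adjusted p = 1.4e-08 and 1.38e-08), and 19.4-fold and 19.9-fold without background correction.

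The beta chain of H2-DM comes from H2-DMb1 and H2-DMb2, neighbouring and near-identical genes whose signals the probes may not fully separate. H2-DMb1 had 5.77 to 10.73 (median 6.88) in adoptive-transfer tumors and 5.37 to 8.89 (median 6.57) in spontaneous tumors, against 11.84, 11.98 and 12.20 in normal B cells. Adoptive-transfer tumor 5 alone made the top of that range: without it the highest of its group was 7.71. The differences were -4.90 ± 0.69 (29.8-fold lower, adjusted p = 1.74e-06) in adoptive-transfer and -5.35 ± 0.71 (40.8-fold lower, adjusted p = 6.29e-07) in spontaneous tumors, and 15.6-fold and 18.2-fold without background correction.

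H2-DMb2 fell further, with 4.80 to 10.62 (median 7.00) in adoptive-transfer and 4.43 to 9.36 (median 7.02) in spontaneous tumors, against 14.04, 14.03 and 13.99 in normal B cells. Tumor 5 was again the highest adoptive-transfer tumor. The transcript was detected in 13 of 14 adoptive-transfer and 9 of 11 spontaneous tumors, missing in adoptive-transfer tumor 1 and in spontaneous tumors 3 and 4. The differences of -6.87 ± 0.87 and -7.01 ± 0.90 are 117.3-fold and 129-fold lower levels in the adoptive-transfer and the spontaneous tumors (adjusted p = 3.57e-07 and 3.69e-07), the largest in both comparisons among the 8 genes not given as bounds, and 59.1-fold and 60.8-fold without background correction.

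The inhibitor genes H2-Oa and H2-Ob, whose products form H2-O, were at or near background in most tumors. H2-Oa had 4.42 to 7.84 (median 4.63) in adoptive-transfer tumors and 4.52 to 5.52 (median 4.71) in spontaneous tumors, against 11.44, 11.62 and 11.35 in normal B cells. It was detected in 3 of 14 adoptive-transfer tumors, numbers 5, 7 and 9, with 7.84, 5.99 and 5.40, and in 3 of 11 spontaneous tumors, numbers 1, 2 and 8, with 5.34, 5.52 and 5.24. The differences were -6.47 ± 0.43 (88.7-fold lower, adjusted p = 8.23e-13) in adoptive-transfer and -6.58 ± 0.44 (95.8-fold lower, adjusted p = 1.17e-12) in spontaneous tumors. Most tumors were at background, and without background correction the levels were 20.4-fold and 21.0-fold lower.

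H2-Ob was detected in no tumor. Its level was 4.39 to 5.19 (median 4.64) in adoptive-transfer and 4.47 to 5.01 (median 4.73) in spontaneous tumors, against 9.75, 9.91 and 9.55 in normal B cells. It was at least 23.1-fold lower in adoptive-transfer tumors (adjusted p = 4.57e-20) and at least 23.7-fold lower in spontaneous tumors (adjusted p = 9.51e-20), while the measured folds without background correction were 7.22 and 7.12. With H2-Aa and H2-Ob set at their bounds, the median differences of the 10 genes were -4.89 in adoptive-transfer and -5.17 in spontaneous tumors.

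Cd74, the invariant chain, was detected in all 25 tumors. It had 9.16 to 11.92 (median 10.21) in adoptive-transfer and 8.89 to 12.78 (median 11.13) in spontaneous tumors, against 15.07, 15.40 and 15.20 in normal B cells. The differences were -4.75 ± 0.62 (26.9-fold lower, adjusted p = 5.13e-07) in adoptive-transfer and -4.29 ± 0.63 (19.6-fold lower, adjusted p = 3.57e-06) in spontaneous tumors.

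Ciita, the regulator of the set, had 4.48 to 8.12 (median 4.73) in adoptive-transfer and 4.47 to 6.52 (median 5.03) in spontaneous tumors, against 10.82, 10.84 and 10.91 in normal B cells. It was detected in adoptive-transfer tumors 5, 7 and 9, with 8.12, 6.03 and 5.70, the tumors that also showed H2-Oa. Among spontaneous tumors it was detected in numbers 1, 2, 8 and 9, with 5.97, 5.91, 6.24 and 6.52, and 3 of these 4 showed H2-Oa. The differences were -5.72 ± 0.51 (52.6-fold lower, adjusted p = 5.73e-10) in adoptive-transfer and -5.58 ± 0.52 (47.8-fold lower, adjusted p = 1.47e-09) in spontaneous tumors. Here too most tumors were at background, and without the correction Ciita was 13.0-fold and 12.9-fold lower.

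Without adoptive-transfer tumor 5 the differences of the 8 genes not given as bounds ran from -7.14 (H2-DMb2) to -4.86 (Cd74) in that group, and all 10 genes kept their call, the highest adjusted p being 4.07e-05 for H2-Eb1. Its removal lowered the SD of H2-Oa over adoptive-transfer tumors to 0.44, against 0.92 with it, and that of Ciita to 0.50, against 0.98. The Y-linked gene Eif2s3y marks a further difference between the groups: 4.40 to 4.82 in adoptive-transfer tumors, 4.34 to 8.58 in spontaneous tumors and 8.93 to 9.04 in normal B cells. With it as a covariate the 10 genes kept their calls in both comparisons.

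The probes of a gene gave the same direction throughout. At the probe level, 18 of 18 probes were lower in each tumor kind, against 18.8% of 22537 probes in adoptive-transfer and 19.1% in spontaneous tumors. For the 6 genes with more than 1 probe the size depended on the probe. A second H2-Ab1 probe gave -5.36 ± 0.56 in adoptive-transfer and -4.86 ± 0.57 in spontaneous tumors, whereas the dim one, with normal intensities of only 272 to 380, gave -2.56 ± 0.21 and -2.59 ± 0.21. The other H2-DMb2 probe gave -8.16 ± 0.37 in adoptive-transfer and -7.99 ± 0.38 in spontaneous tumors, and was detected in 2 and 5 of them. Both remaining Cd74 probes fell close to the brightest, with -4.86 ± 0.66 and -4.54 ± 0.65 in adoptive-transfer and -4.48 ± 0.68 and -4.17 ± 0.66 in spontaneous tumors. The other Ciita probe gave -4.01 ± 0.33 and -4.11 ± 0.33, that of H2-Oa -5.73 ± 0.30 and -5.85 ± 0.31, and that of H2-DMa -5.01 ± 0.43 and -4.74 ± 0.45, in adoptive-transfer and spontaneous tumors in that order.

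**Figure D2:**
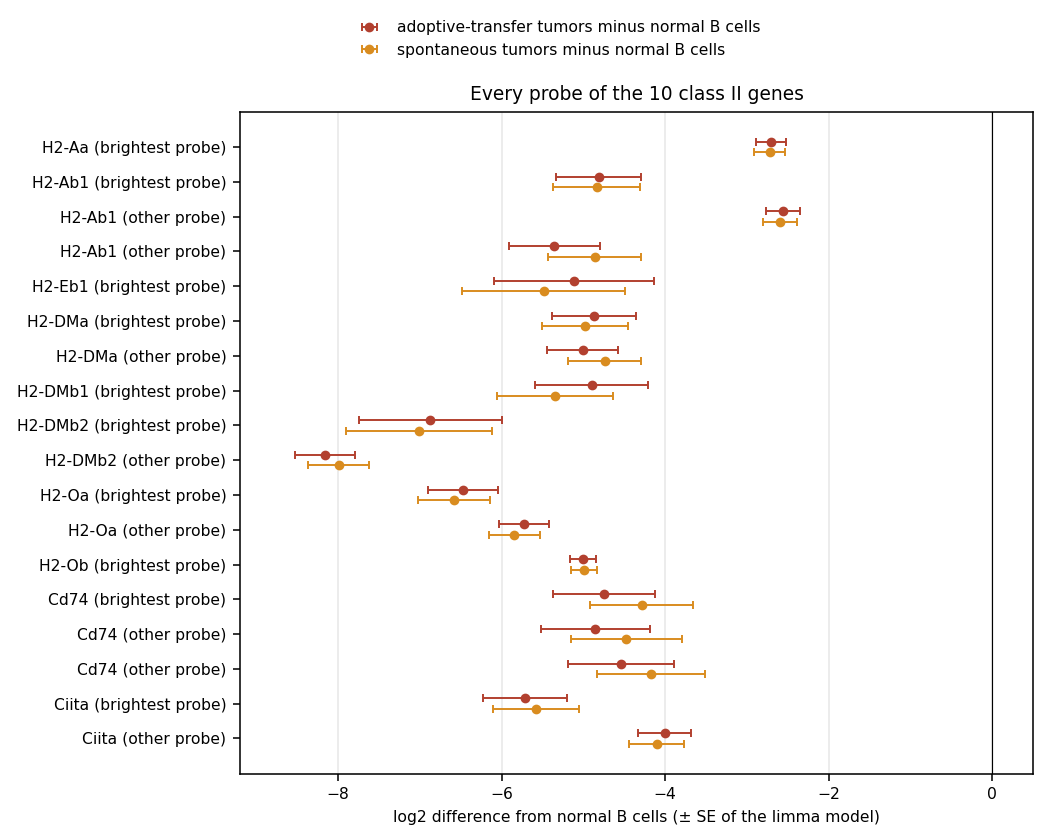
Log2 difference from normal B cells (horizontal axis, ± SE of the limma model) for each of the 18 probes of the class II genes, in adoptive-transfer tumors (red) and spontaneous tumors (orange); the brightest probe of a gene is listed first. Every probe lies left of 0, from -8.16 for the second H2-DMb2 probe to -2.56 for the dim H2-Ab1 probe in adoptive-transfer tumors.

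The tumor kinds were not shown to differ in any class II gene. In limma 0 of 10 passed the threshold between adoptive-transfer and spontaneous tumors, where 2.73% of all genes did, and 0 of 10 had an unadjusted p under 0.05. The differences, adoptive-transfer minus spontaneous, ran from -0.46 for Cd74 (95% interval -1.26 to 0.34) to 0.45 for H2-DMb1 (-0.44 to 1.35). For H2-Eb1, with the widest interval, it was 0.37 (-0.89 to 1.63). The lowest adjusted p was 0.585. The order of levels was therefore the same for each gene: normal B cells above both tumor kinds, which overlapped.

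The genes were next followed from array to array within each tumor kind. The number of class II genes detected was 5 to 8 in adoptive-transfer tumors (median 6), 4 to 8 in spontaneous tumors (median 6) and 10 in normal B cells. H2-Ab1, H2-DMa, H2-DMb1 and Cd74 were detected in every tumor. The mean log2 level of the 10 genes was highest in adoptive-transfer tumors 5, 7 and 9 (8.99, 7.89 and 7.85) and spontaneous tumors 9 and 8 (8.48 and 8.19), and lowest in spontaneous tumors 3 and 4 (5.63 and 5.69). In normal B cells it was 12.13, 12.33 and 12.13. Spontaneous tumor 9 was the highest of its group for 8 of the 10 genes and adoptive-transfer tumor 5 for 6.

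**Figure D3:**
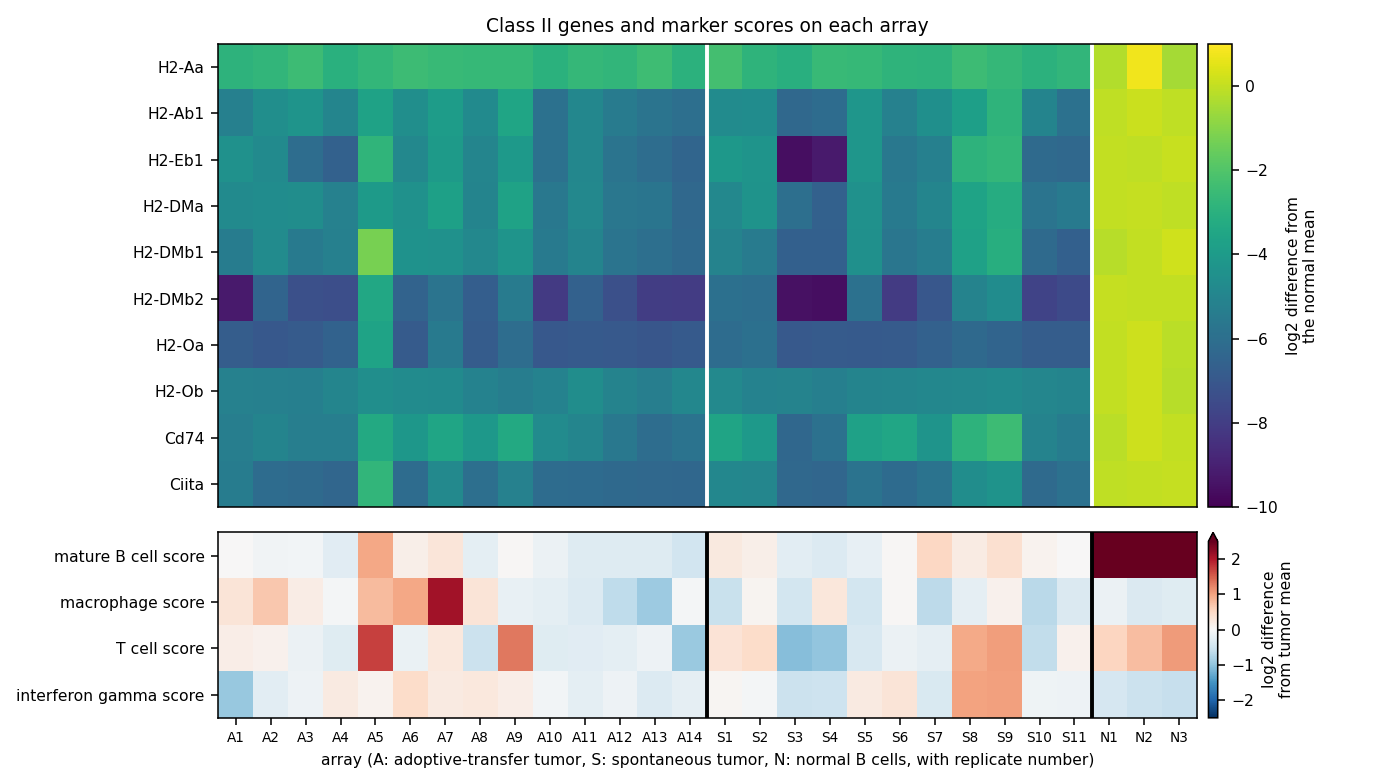
Upper panel: log2 difference of each class II gene from its mean in normal B cells (colour) on every array, with adoptive-transfer tumors (A1 to A14), spontaneous tumors (S1 to S11) and normal B cells (N1 to N3) along the horizontal axis. Lower panel: marker scores as log2 difference from the tumor mean, the mature B cell score of the normal samples going past the colour scale; A5 is the brightest adoptive-transfer column, and S3 and S4 are dark for H2-Eb1 and H2-DMb2.

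Correlations between the genes were taken within each tumor kind, with permutation p-values adjusted over 90 relations. Of 45 pairs, 28 passed in adoptive-transfer tumors (median Pearson r 0.69, range -0.02 to 0.96; median Spearman rho 0.64) and 31 in spontaneous tumors (median r 0.78, range 0.35 to 0.97; median rho 0.74). By rho 24 and 28 passed. Of all 69661306 gene pairs, 6.64% in adoptive-transfer and 2.76% in spontaneous tumors had an r at or above the lowest that passed here (0.60 and 0.65). The chain gene H2-Ab1 and the loading gene H2-DMa were among the closest, with r 0.95 and rho 0.94 in adoptive-transfer tumors (permutation p = 1e-05 for both, the smallest that 100000 resamples can give, adjusted p = 0.00022 for r and 0.00054 for rho). Without the 2 tumors farthest from the median their r was 0.93. Ciita followed H2-DMa in spontaneous tumors (r 0.91, permutation p = 4e-05, adjusted p = 0.00035; rho 0.96, permutation p = 3e-05, adjusted p = 0.00054; r 0.86 without 2 tumors). Some relations of Ciita in adoptive-transfer tumors leaned on tumor 5: with H2-DMb2, r was 0.74 (permutation p = 0.0072, adjusted p = 0.013; rho 0.54, permutation p = 0.051, adjusted p = 0.081) and 0.37 without it, but 0.77 without tumors 5 and 1. H2-Aa passed with 0 of its 9 partners in either tumor kind (lowest adjusted p = 0.15 in adoptive-transfer and 0.11 in spontaneous tumors), and H2-Ob with 0 of 9 in adoptive-transfer and 7 of 9 in spontaneous tumors. Both were at background in the tumors, and with each other they gave little (r -0.02 in adoptive-transfer and 0.35 in spontaneous tumors, permutation p = 0.94 and 0.29; rho -0.13 and 0.30, permutation p = 0.65 and 0.37).

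What remains of class II in the tumors was set against markers of macrophages and mature B cells, which both carry it. Each score is the mean log2 level of the tested markers of a list, and no class II gene is in a list. The mature B cell score was 5.86 to 7.30 in adoptive-transfer and 5.99 to 6.85 in spontaneous tumors, against 10.64 to 10.80 in normal B cells. In each tumor kind 14 of its 15 markers were lower, where 16.7% of all genes were in adoptive-transfer and 17.9% in spontaneous tumors. Among the 14 were Fcmr, the Fc receptor for IgM, at -8.27 ± 0.73 in adoptive-transfer and -8.49 ± 0.75 in spontaneous tumors, Fcer2a (CD23) at -6.56 ± 0.24 and -6.51 ± 0.24, and the kinase Blk at -6.03 ± 0.50 and -6.35 ± 0.51. Fcer2a was detected in 5 of 14 adoptive-transfer and 2 of 11 spontaneous tumors, and Blk in 3 and 1. Most tumors were at background for Fcer2a and Blk, so the sizes of their differences depend on the background level. The adaptor Blnk was not called (0.05 ± 0.55 and 0.75). Of these markers 6 to 12 were detected per adoptive-transfer tumor, 4 to 12 per spontaneous tumor and 15 per normal sample. Cr2, the complement receptor CD21, was detected in no tumor and entered the test through the normal samples alone, which fixes its direction. Cd79b, Blnk, Fcrla and Cd72 were detected in every tumor.

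The macrophage score overlapped between the groups: it was 6.65 to 9.67 in adoptive-transfer tumors, highest in tumor 7, and spontaneous tumors had 6.89 to 7.86, against 7.20 to 7.43 in normal B cells. Of 18 tested markers, adoptive-transfer tumors had 4 higher and 3 lower, and spontaneous tumors 3 higher and 4 lower. These counts are near the shares of all genes: 19.8% higher and 16.7% lower in adoptive-transfer, 18.5% and 17.9% in spontaneous tumors. Gpnmb, which encodes a transmembrane glycoprotein of macrophages, was at least 40.2-fold higher in adoptive-transfer and at least 12.2-fold higher in spontaneous tumors. The lysozyme gene Lyz2 was higher by 2.73 ± 0.69 and 1.85 ± 0.71. Vsig4, a complement receptor of resident macrophages, was at least 6.74-fold and the scavenger receptor Msr1 at least 2.39-fold higher in adoptive-transfer tumors, and the complement gene C1qb was higher by 1.98 ± 0.68 in spontaneous tumors. Gpnmb, Vsig4 and Msr1 were detected in no normal sample and entered the test through the tumors alone, which fixes their direction. The receptor Cd163 was lower, at -2.28 ± 0.77 and -2.25 ± 0.79, the phagocytic receptor Mertk at -1.41 ± 0.44 and -1.49 ± 0.45 and the lectin Clec4n at -1.13 ± 0.41 and -1.70 ± 0.42, in adoptive-transfer and spontaneous tumors in that order. In spontaneous tumors the growth factor receptor Csf1r was lower, at -1.42 ± 0.49. Between 11 and 18 of the markers were detected per adoptive-transfer tumor, 12 to 17 per spontaneous tumor and 12 or 13 per normal sample. Itgam (CD11b) was detected in 3 adoptive-transfer tumors, in 0 spontaneous tumors and in 0 normal samples.

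Both scores entered a limma model of the 25 tumors, with a mean for each tumor kind. On the macrophage score 0 of 10 class II genes had a slope past the threshold, where 2.41% of all genes had a positive one, and 0 of 10 had an unadjusted p under 0.05. The slopes ran from -0.18 for H2-Eb1 to 0.26 for Cd74, in log2 units per log2 unit of the score. Taken alone, without the B cell score, the macrophage slope was positive for 10 of 10 genes and called for 0 (4.70% of all genes were called, lowest adjusted p = 0.168), with 5 at an unadjusted p under 0.05.

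On the mature B cell score 8 of 10 class II genes had a positive slope past the threshold, where 8.89% of all genes did. The exceptions were H2-Aa (0.10 ± 0.18) and H2-Ob (0.33 ± 0.17), the genes detected in no tumor. Ciita rose by 2.23 ± 0.35 log2 units per unit of the score (adjusted p = 0.000235), H2-Oa by 1.73 ± 0.31 (0.000681) and H2-DMb1 by 2.81 ± 0.52 (0.000993). H2-Eb1 had the steepest slope, 3.67 ± 0.87 (adjusted p = 0.00576), followed by H2-DMb2 at 3.34 ± 0.76 (0.00447). For Cd74 the slope was 1.97 ± 0.55 (0.0164), for H2-Ab1 1.74 ± 0.47 (0.0132) and for H2-DMa 1.59 ± 0.47 (0.0209).

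Most of these calls were lost without adoptive-transfer tumor 5, whose mature B cell score of 7.30 was the highest of the tumors: 1 of the 8 genes, H2-Eb1, then passed the threshold (slope 4.92, adjusted p = 0.0465). The slopes themselves moved both ways. They were 2.40 for H2-Ab1, 2.44 for H2-DMa and 2.66 for Cd74 without it, steeper than with it, and 0.79 for H2-Oa, 1.61 for Ciita, 2.16 for H2-DMb1 and 3.25 for H2-DMb2, less steep, with adjusted p from 0.0521 to 0.237 over these 7. With the mature B cell score alone in the model 8 genes were called with tumor 5 (12.7% of all genes were) and 6 without it. T cell markers moved with the same score. The T cell score was 5.35 to 7.98 in adoptive-transfer and 5.22 to 7.34 in spontaneous tumors, against 6.81 to 7.34 in normal B cells. Of the T cell list Thy1 was higher (1.87 ± 0.44 in adoptive-transfer and 1.52 ± 0.45 in spontaneous tumors), Cd2 was lower (-3.14 ± 0.54 and -4.18 ± 0.56) and the other 4 were not called. Detected were 3 to 6 of the 6 markers per adoptive-transfer tumor, 1 to 6 per spontaneous tumor and 6 per normal sample. Cd2 was lower, as 14 of 15 mature B cell markers were, and whether Cd2 and Thy1 follow T cells here was not tested. A T cell score without them was not run. The correlation of the T cell score with the mature B cell score was r 0.82 (rho 0.75, permutation p = 0.0012 and 0.0024) in adoptive-transfer tumors, 0.61 without tumor 5 and 0.63 without the 2 tumors farthest from the median. In spontaneous tumors it was r 0.70 (rho 0.69, permutation p = 0.017 and 0.022), and 0.86 without 2 tumors. On the T cell score alone 8 of 10 class II genes had a called positive slope, where 3.60% of all genes did. Ciita rose by 1.10 ± 0.13 (adjusted p = 1.21e-05) and H2-Eb1 by 1.96 ± 0.28 (adjusted p = 0.000239), and H2-Aa and H2-Ob were not called. Without tumor 5 the T cell score gave 7 calls, with slopes of 0.85 ± 0.12 for Ciita (adjusted p = 0.000185) and 2.17 ± 0.33 for H2-Eb1 (adjusted p = 0.000719), and H2-Oa lost its call (0.41 ± 0.11, adjusted p = 0.156). With the T cell score added to the model 0 of 10 class II genes had a called slope on the mature B cell score (2 at an unadjusted p under 0.05), where 0.0339% of all genes had one, and 0 of 10 on the T cell score (7 at an unadjusted p under 0.05), where 0.0508% had one. The macrophage slope in it was called for 0 of 10 (1 at an unadjusted p under 0.05), where 2.28% of all genes had one. Without tumor 5 this model called 0 of 10 on the mature B cell score and 2 of 10 on the T cell score. For the slope fits without tumor 5, here and below, the share of all genes called was not taken. Whether calls were lost over all genes alike is therefore not known. With tumor 5 the H2-DMa slope on the mature B cell score was -0.27 ± 0.53 and the Ciita slope 0.91 ± 0.42. Which of these cell types, or the tumor cells, holds the remaining transcripts was not tested.

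The slopes were compared between the tumor kinds in a further model. For the macrophage score 0 of 10 class II genes differed (0 at an unadjusted p under 0.05), and 0 of 11804 genes did. For the mature B cell score 0 of 10 differed, where 4.61% of all genes did, with 2 at an unadjusted p under 0.05: H2-Oa had a slope 1.52 ± 0.52 higher in adoptive-transfer than in spontaneous tumors (adjusted p = 0.09) and for H2-Eb1 the difference was -3.47 ± 1.55 (adjusted p = 0.194).

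Within each tumor kind the same relations were taken as correlations, 40 in all. With the macrophage score Pearson r ran from 0.17 to 0.65 in adoptive-transfer and from -0.29 to 0.18 in spontaneous tumors. It passed for 1 gene, H2-DMa in adoptive-transfer tumors (r 0.65, rho 0.66, permutation p = 0.011 and 0.012, adjusted p = 0.044 and 0.048), by rho also for H2-DMb1 there, and for 0 genes in spontaneous tumors. An r as high as that of H2-DMa was seen in 5.13% of all genes. With the mature B cell score r ran from 0.23 to 0.92 in adoptive-transfer tumors, 8 of 10 genes passing by r and 6 by rho, and from 0.15 to 0.80 in spontaneous tumors, 1 passing by r and 3 by rho. At or above the lowest r that passed (0.71 and 0.80) were 9.23% of all genes in adoptive-transfer and 1.27% in spontaneous tumors. In spontaneous tumors the gene that passed by r was H2-Ob (r 0.80, rho 0.80, permutation p = 0.003 and 0.0047, adjusted p = 0.015 and 0.031), which was detected in no tumor. Without the 2 tumors farthest from the median score 0 of the 40 passed, with the lowest adjusted p at 0.071, and without adoptive-transfer tumor 5 alone 6 of the 8 calls with the mature B cell score were made in its group. The values moved both ways as the tumors became fewer: the r of H2-DMa with the mature B cell score in adoptive-transfer tumors was 0.80 without the 2 and 0.73 with them, that of H2-DMb2 0.26 and 0.75, and the median of the 10 genes 0.60 and 0.74. In the spontaneous tumors the median r with the mature B cell score was 0.64 with and 0.70 without those 2. The macrophage and mature B cell scores were themselves related in adoptive-transfer tumors (r 0.63, rho 0.76, permutation p = 0.029 and 0.0025). Their r there was 0.79 without tumor 5 and 0.63 without the 2 tumors farthest from the median. In spontaneous tumors the scores were not shown to be related (r -0.22, rho -0.22, permutation p = 0.51 and 0.52).

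**Figure D4:**
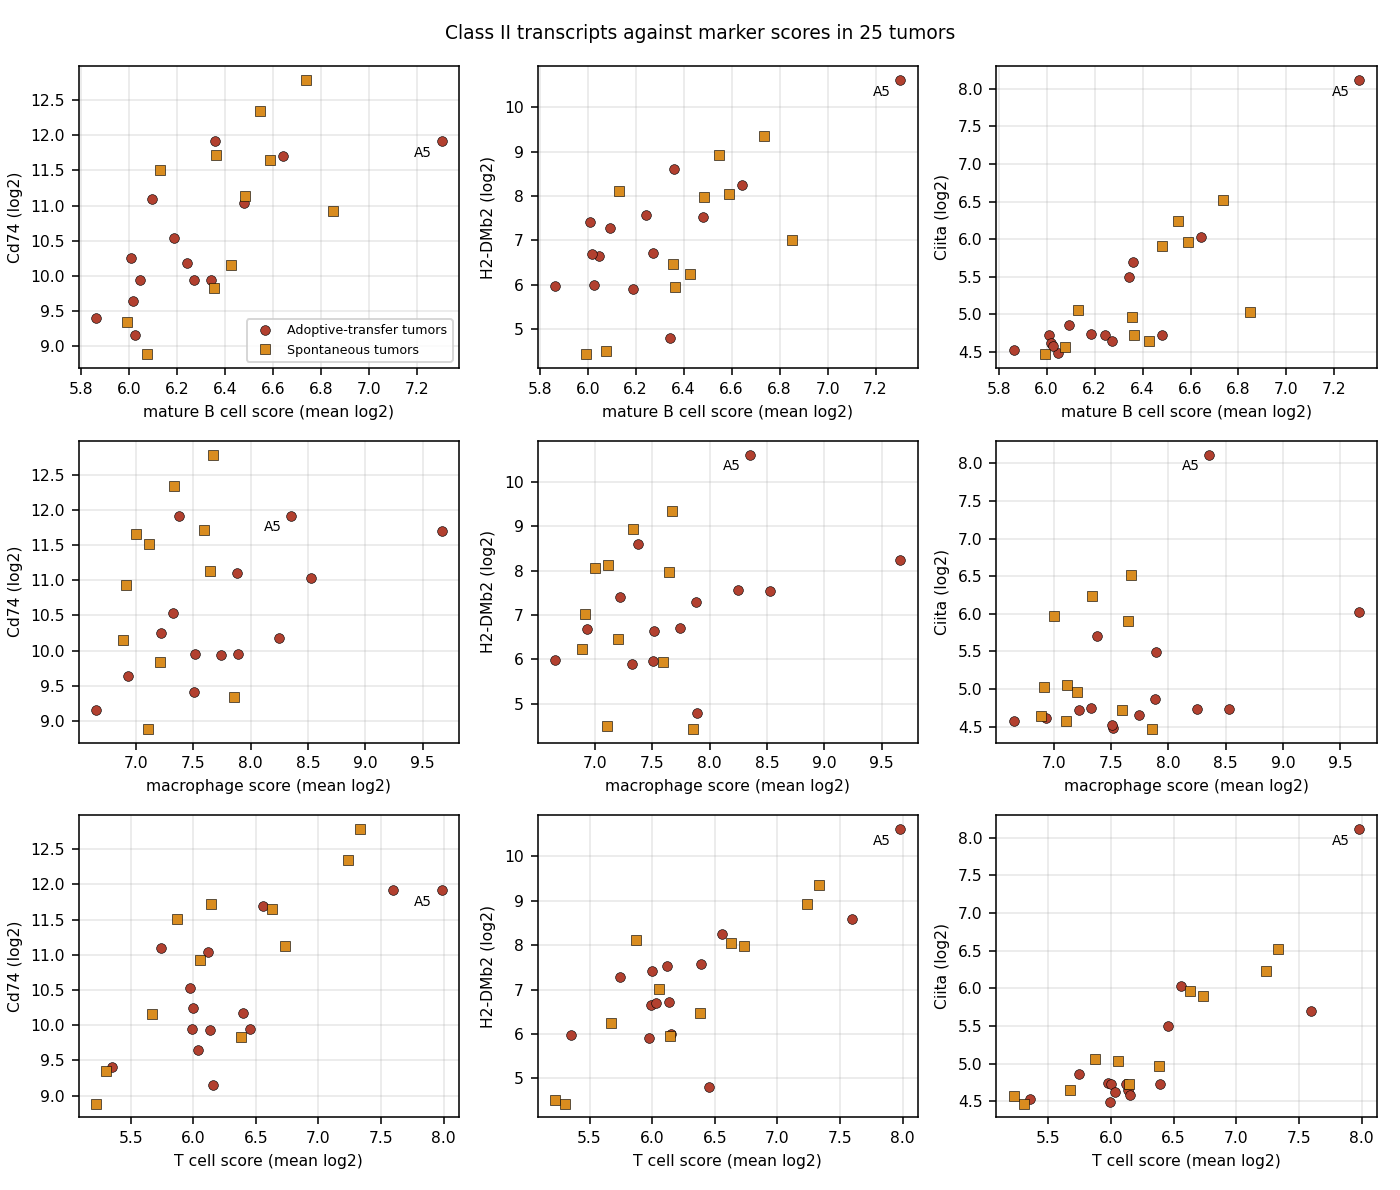
Log2 level of Cd74, H2-DMb2 and Ciita (vertical axes) against the mature B cell, macrophage and T cell scores (horizontal axes, mean log2 level of the markers) in 14 adoptive-transfer tumors (red circles) and 11 spontaneous tumors (orange squares); A5 is adoptive-transfer tumor 5. A5 is the outermost point of the mature B cell and T cell panels, with scores of 7.30 and 7.98, and the median of Ciita is 4.73 in adoptive-transfer and 5.03 in spontaneous tumors.

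The genes most like each class II gene over the 25 tumors, after the mean of each tumor kind was removed, were named by Pearson r as a description, since tumors share depth and cell makeup. H2-Eb1 was closest to H2-Ea (r 0.96), the alpha chain partner of I-E, then to the chemokine Ccl5 (0.91) and the T cell receptor subunit Cd3g (0.81). H2-Ea was also among the 3 nearest of H2-DMb2 (0.92, with the T cell receptor segment Trbv13-2 at 0.91 and Cd3e at 0.86), of Cd74 (0.90, with Cd3g at 0.88 and Gm4951 at 0.86) and of H2-Ab1 (0.87, with the interferon-induced Gbp2 at 0.87 and Ccl5 at 0.85). Without tumor 5 these r values stayed between 0.80 and 0.96. Ciita was nearest to Cd3d (0.95), Arhgap4 (0.93) and the T cell adaptor Lat (0.93), and H2-Oa to Lat (0.96), Gmip (0.95) and B3gnt5 (0.93). H2-DMa had Ccl5 and Cd3g (0.87 each) and Gbp2 (0.84), and H2-DMb1 had Gbp2b (0.89), Cd3e (0.87) and the receptor Il10ra (0.86). For H2-Ob the nearest were Itch (0.73), Inpp5f (0.70) and Adar (0.69), and for H2-Aa Tepsin (0.66), St3gal1 (0.65) and Olfr1195 (0.61). Without tumor 5 the named r values were 0.84 to 0.91 for Ciita, 0.76 to 0.87 for H2-Oa, 0.75 to 0.88 for H2-DMb1 and 0.60 to 0.66 for H2-Ob.

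Age ran widely in the spontaneous tumors only. In limma 0 of 10 class II genes and 0 of 11804 genes had a slope on age past the threshold there. H2-Eb1, at 0.0299 ± 0.0129 log2 units per day (unadjusted p = 0.0383, adjusted p = 0.416), was the single class II gene under 0.05 before adjustment, and tumors 3 and 4 set the young end of the range. Age and the Y-linked Eif2s3y ran together in this group. Spontaneous tumors 5, 6, 10 and 11, at 159 to 162 days, had Eif2s3y levels of 4.34 to 5.61. The others, at 40 to 130 days, had 8.27 to 8.58, so age and this difference cannot be told apart.

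The other genes of the pathway were taken as 4 lists. In the transcription complex that recruits CIITA, 0 of 6 tested genes were higher and 2 lower in adoptive-transfer tumors, 0 higher and 1 lower in spontaneous tumors. Of all genes 19.8% and 18.5% were called higher and 16.7% and 17.9% lower, in that order of tumor kinds. The median differences of the 6 genes were -0.14 and -0.11. Nfyc, an NF-Y subunit, was lower in both (-0.78 ± 0.18, adjusted p = 0.00114, and -0.91 ± 0.19, adjusted p = 0.000264). Nfya, another, was lower in adoptive-transfer tumors (-0.73 ± 0.25, adjusted p = 0.0219), with -0.55 ± 0.26 (adjusted p = 0.0932) in spontaneous tumors. The RFX subunits Rfxap and Rfxank, the NF-Y subunit Nfyb and Creb1 were not called, with -0.23 to 0.29 in adoptive-transfer and -0.22 to 0.36 in spontaneous tumors. Rfx5 was not above the detection filter.

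Of 9 tested regulators of Ciita, 1 was higher and 4 lower in adoptive-transfer tumors, 0 higher and 3 lower in spontaneous tumors, with medians of -1.32 and -0.96. For the adoptive-transfer kind, the share of all genes called was 19.8% upward and 16.7% downward. For the spontaneous kind these shares were 18.5% and 17.9%. Prdm1 encodes BLIMP-1, which silences Ciita in plasma cells. Its level was 4.49 to 7.98 (median 6.46) in adoptive-transfer and 5.15 to 7.85 (median 5.74) in spontaneous tumors, against 4.40, 4.60 and 4.66 across the normal samples, none of which was above background. It was at least 2.30-fold higher in adoptive-transfer tumors (adjusted p = 0.0254), and in spontaneous tumors the bound was 1.88-fold and the gene was not called (adjusted p = 0.0696). Prdm1 entered the test through the tumors alone, which fixes its direction. Irf8, an interferon regulatory factor of B cells and myeloid cells, was lower, at -4.02 ± 0.53 (adjusted p = 6.48e-07) and -4.39 ± 0.54 (adjusted p = 2.15e-07) in the adoptive-transfer and the spontaneous tumors. Of the interferon gamma pathway, the receptor chain Ifngr1 (-1.56 ± 0.48 and -1.77 ± 0.49) and the kinase Jak1 (-1.72 ± 0.22 and -1.59 ± 0.23) were lower in both, and Jak2 in adoptive-transfer tumors (-1.54 ± 0.39), with -0.96 ± 0.40 (adjusted p = 0.0594) in spontaneous tumors. Irf4, Spi1, Irf1 and Ifngr2 were not called (-1.32 to -0.54 in adoptive-transfer and -1.56 to -0.27 in spontaneous tumors). Pax5 was not tested.

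In antigen processing 1 of 10 genes was higher and 4 lower in each tumor kind, with medians of -0.17 in adoptive-transfer and -0.46 in spontaneous tumors. Upward calls made up 19.8% and 18.5% of all genes, and downward calls 16.7% and 17.9%, in that order of tumor kinds. The gene that went up was Lgmn, an endosomal protease that cuts antigen and invariant chain, at 1.77 ± 0.39 (adjusted p = 0.000577) and 1.95 ± 0.40 (adjusted p = 0.000258). Cd83, which stabilises class II at the surface, was lower, at -6.20 ± 0.43 and -5.81 ± 0.44, the thiol reductase Ifi30 at -2.59 ± 0.39 and -2.13 ± 0.39, the protease Ctsh at -2.44 ± 0.45 and -2.33 ± 0.46 and Marchf1, a ligase that removes surface class II, at -2.56 ± 0.78 and -2.05 ± 0.80 (highest adjusted p = 0.0437, for Marchf1 in spontaneous tumors). Ctss, the protease that trims the invariant chain in B cells, was not called (-0.51 ± 0.34 and -0.76).

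Of 6 costimulatory genes 0 were higher and 5 lower in each tumor kind, with medians of -1.80 in adoptive-transfer and -1.75 in spontaneous tumors. Of all genes 16.7% were called lower in adoptive-transfer and 17.9% in spontaneous tumors. Cd40, the receptor for T cell help, was lower, at -5.21 ± 0.53 and -5.68 ± 0.54, the CD28 ligand gene Cd86 at -3.05 ± 0.56 and -3.61 ± 0.57, and Icosl at -2.13 ± 0.29 and -2.13 ± 0.30, in the adoptive-transfer and the spontaneous tumors. The PD-1 ligand genes Cd274 (-1.48 ± 0.30 and -1.36 ± 0.31) and Pdcd1lg2 (detected in no tumor, at least 1.42-fold and 1.45-fold lower) were lower too, and Cd80 was not called. Pdcd1lg2 entered the test through the normal samples alone, which fixes its direction.

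**Figure D5:**
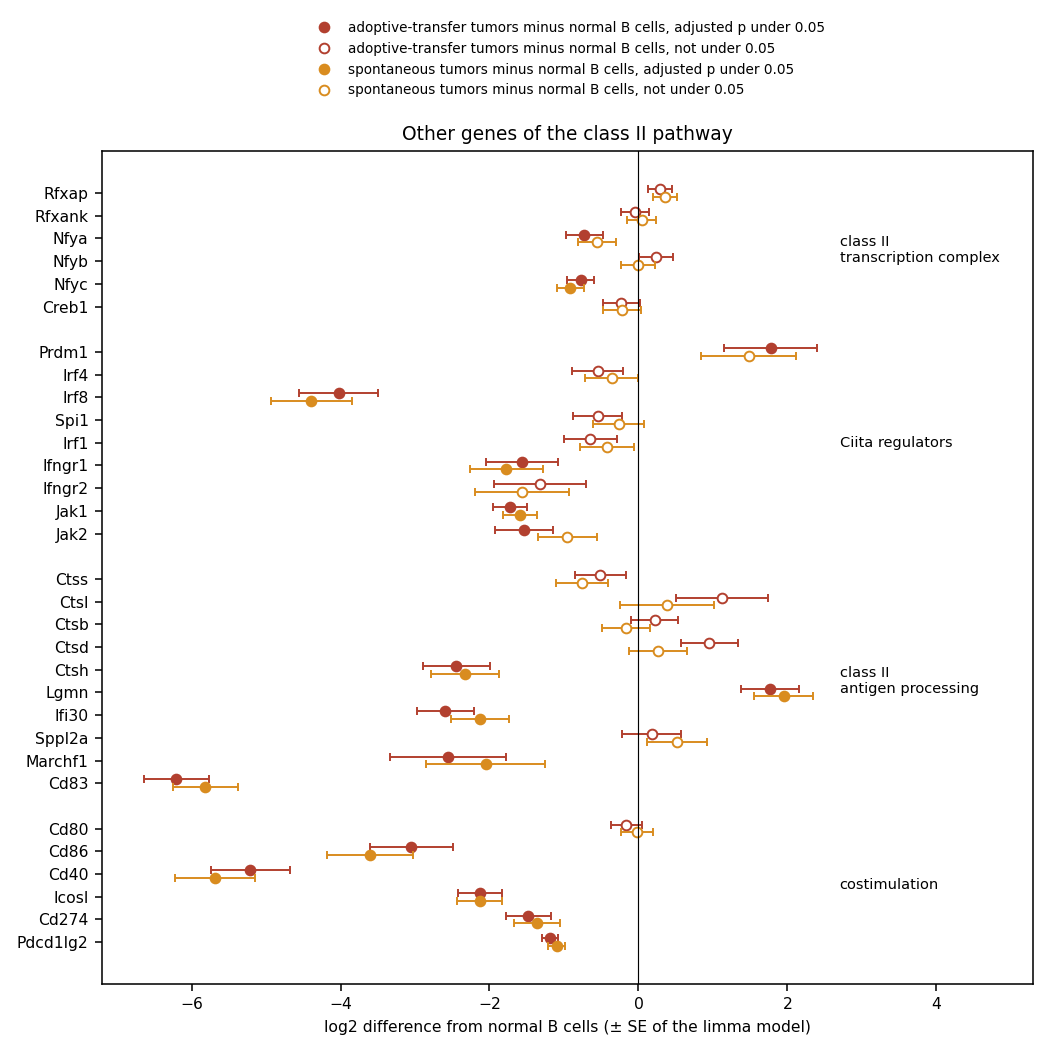
Log2 difference from normal B cells (horizontal axis, ± SE of the limma model) for the tested genes of 4 further class II pathway lists, in adoptive-transfer tumors (red) and spontaneous tumors (orange), with filled points at an adjusted p under 0.05. Lgmn lies to the right in both tumor kinds and Prdm1 in adoptive-transfer tumors, Cd83, Cd40 and Irf8 lie farthest to the left, and most of the transcription complex lies near 0.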

How the data were processed

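Illumina arrays measured RNA of 14 adoptive-transfer tumors, 11 spontaneous tumors and 3 normal B cell samples. RNA was extracted from ground frozen tissue with Trizol, per the labels' protocols, and biotinylated cRNA was made with an Ambion kit. Per the file headers, the authors deposited for each array a probe intensity, linear and without background subtraction or normalization, and a detection score from 0 to 1. A second deposited table holds log2 values with a median of 7.15 in every column, whose ranks match the intensities (lowest rank correlation 0.999996). The submitters' processing notes name Partek, with no version or role. No chip, slide or scan is named in the sources used here.

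The intensities of 45281 probes were processed in R 4.3.3 (package data.table, version 1.17.8) with neqc of limma 3.58.1: normal-exponential background correction from 1 minus the detection score as p, an offset of 16, quantile normalization and log2. A gene is its probe with the highest mean, tested where that probe was detected (p under 0.05) on at least 3 arrays, which left 11804 genes and 22537 probes. Annotation of the arrays assigned a single symbol for 34885 probes, several for 18 and none for 10378; all 10 class II symbols matched RefSeq. A limma model with a mean per group gave two-sided tests with Benjamini-Hochberg adjustment over all genes. Errors are SE unless SD is named. The slope models and permutation tests (100000 resamples) used the 25 tumors. The fits were tested on simulated data first. No 2 arrays were duplicates (highest correlation 0.9915).

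The genes, lists and motifs were chosen with earlier results of these data known. The rule for other names took the 3 called genes of a list with the largest differences in each comparison, those that moved against the list's median, every transcription complex gene and Ciita regulator, the top 3 markers of each score and the 3 genes most like each class II gene. Of 20 macrophage markers 18 and of 17 mature B cell markers 15 were tested. The number of arrays limits the precision, and signals near background are only bounds.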

Additional observations from a re-analysis of the deposited data

How the results depend on the processing

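The lower class II levels kept their direction and call in all 792 values of single genes under the alternatives tried (log2 differences from -7.61 to -1.12, highest adjusted p = 0.0285): no background correction, an offset of 50, median scaling, the deposited log2 values, 2 other detection filters, the mean of all probes, array weights, only the 2 groups compared, a replicate block, Eif2s3y as a covariate, and each sample left out. The count of 10 in each comparison fell to 6 in adoptive-transfer and 6 in spontaneous tumors with detection on at least 14 arrays, because H2-Aa, H2-Oa, H2-Ob and Ciita were then not tested. Between the tumor kinds none of 396 values was called, and 46 changed sign. The replicate numbers share only a number (correlation of same-numbered deviations -0.07 to 0.22, over 0.1 in 3 of 11 pairs of tumors). With the replicate block all 10 genes were called against normal B cells and 0 between the tumor kinds, while over all genes 3927, 3942 and 172 were called for adoptive-transfer against normal, spontaneous against normal and between the kinds, against 4311, 4301 and 322 without it. With Eif2s3y as a covariate these counts were 1950, 3677 and 1, with array weights 7215, 7161 and 894, with only the 2 groups compared 3630, 5612 and 207, and with median scaling 140 between the kinds. Median scaling moved the share of calls that were higher to 33.3% and 32.2%, against 54.3% and 50.8%, and the median of all genes to -0.08 and -0.07, against 0.11 and 0.08 in adoptive-transfer and spontaneous tumors. The class II medians were then -5.01 and -5.26.

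Slopes on the macrophage score were called in none of 326 values. On the mature B cell score the count of 8 became 4 with the median of the markers, 4 without adoptive-transfer tumors 1 and 5, 1 to 8 when each tumor was left out in turn (1 without adoptive-transfer tumor 5) and 0 with the T cell score in the model, where the H2-DMa slope turned to -0.274. The setting with the T cell score was chosen after seeing the data, as were the correlations, the slopes on 1 or 3 scores and the r of the most similar genes without adoptive-transfer tumor 5, and the test of slopes between kinds; the cause of these changes was not tested. Of the 40 correlations with scores 10 passed, 11 by Spearman's rho, 7 without adoptive-transfer tumor 5 and 0 without the 2 tumors farthest from the median score. Slopes on age were called for 0 of 10 class II genes under each alternative run.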

Other observations

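Beyond the macrophage and mature B cell lists, class II levels were set against scores of other cell types, relations chosen after the values were seen. Within the tumor kinds, Pearson r with the T cell score ran from 0.11 to 0.85 in adoptive-transfer tumors (-0.36 to 0.79 without tumor 5) and from 0.49 to 0.93 in spontaneous tumors, over a family of 40 relations with the T cell and interferon gamma response scores. For Ciita in spontaneous tumors r was 0.93 and rho 0.90 (permutation p = 2e-05 and 0.00049, adjusted p = 0.0008 and 0.0098), and r was 0.86 without the 2 tumors farthest from the median score.

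The interferon gamma response score, from Gbp2, Igtp, Cxcl9 and 4 other genes, was 6.59 to 8.00 in adoptive-transfer and 6.99 to 8.55 in spontaneous tumors, against 6.95 to 7.10 in normal B cells. Igtp, an interferon-induced GTPase, was higher by 1.96 ± 0.45 in adoptive-transfer and 2.22 ± 0.46 in spontaneous tumors, and the chemokine Cxcl9 by 2.17 ± 0.84 in spontaneous tumors. Ifng was called lower in adoptive-transfer tumors, where it was detected in 0 of 14. In the normal samples it was detected in 2 of 3, with levels of 5.11 to 5.43 near background. The bound of at least 1.01-fold leaves almost no measured difference. On this score alone Cd74 (1.88 ± 0.32, adjusted p = 0.0073) and H2-DMb2 (2.45 ± 0.49, adjusted p = 0.0334) had called slopes, where 0.152% of all genes had. Without adoptive-transfer tumor 5 the called genes were 4, these and H2-DMb1 (1.60 ± 0.27) and H2-Ab1 (1.36 ± 0.30), with no share of all genes taken. Pearson r ran from 0.11 to 0.59 in adoptive-transfer and from 0.37 to 0.88 in spontaneous tumors. For Cd74 in spontaneous tumors r was 0.88 and rho 0.96 (permutation p = 0.00025 and 3e-05, adjusted p = 0.0023 and 0.0012; r 0.84 without 2 tumors). The T cell and interferon gamma scores were related in spontaneous tumors (r 0.83, rho 0.76, permutation p = 0.0018 and 0.0084; r 0.57 without 2 tumors) and not shown to be in adoptive-transfer tumors (r 0.13, rho -0.09, permutation p = 0.64 and 0.75).

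On the dendritic cell score alone Ciita (3.35 ± 0.59), H2-Oa (3.00 ± 0.44) and H2-DMb1 (3.57 ± 0.96) had called slopes, where 14.1% of all genes had. On the neutrophil score alone H2-Oa (0.31 ± 0.07) and Ciita (0.30 ± 0.10) had, where 11.3% of all genes had; adoptive-transfer tumor 5 was the highest tumor for both scores, and without it 0 of 10 genes were called on either (2 at an unadjusted p under 0.05 on the dendritic cell score, H2-Oa and Ciita, and 0 on the neutrophil score). Of 9 dendritic cell markers 0 were higher and 3 lower in each tumor kind, the receptors Ccr7 (-3.77 ± 0.33 in adoptive-transfer and, undetected, at least 10.9-fold lower in spontaneous tumors), Siglech (-1.98 ± 0.58 and -2.24 ± 0.59) and Ly75 (-0.64 ± 0.16 in adoptive-transfer and, undetected, at least 1.15-fold lower in spontaneous tumors). Over all genes 16.7% were called lower in adoptive-transfer and 17.9% in spontaneous tumors, and Ccr7 and Ly75 passed the detection filter only with the normal samples. In the normal samples Flt3, Zbtb46, Itgax, Xcr1 and Clec9a were not above background, and each was detected in 1 to 4 tumors of a kind.

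The class II gene H2-Ea, the alpha chain of I-E, was looked at after its values were seen. It was detected in all 25 tumors and was lower by -4.29 ± 0.88 in adoptive-transfer (adjusted p = 0.000293) and -4.77 ± 0.90 in spontaneous tumors (adjusted p = 0.000115). Its level was 13.52 in adoptive-transfer tumor 5, 6.18 and 7.75 in spontaneous tumors 3 and 4, and 15.14, 15.16 and 15.18 in normal B cells. The 3 probes of H2-Eb2, a class II beta chain gene beside H2-Eb1, differed: -2.56 and -2.49 for a probe detected in no tumor (at least 3.86-fold and 3.95-fold lower), -1.57 and -1.45 for another, and -0.36 and -0.26, not called, for the third, in adoptive-transfer and spontaneous tumors.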
